A study of Mus musculus with 179 samples.

Results

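Among the single cells of mouse pancreatic organoids, 6, or 3.35% of all cells deposited, carried a large amount of fibroblast RNA, and they are described here against the other cells. They were chosen by measured values: a cell entered when its UMIs (unique molecular identifiers, which count RNA molecules) of Col1a1, Col1a2, Col3a1, Pdgfra, Pdgfrb, Dcn, Lum, Acta2, Des and Thy1 together made up at least 1000 counts per 1000000 UMIs (CPM). The 6 cells are titled Acinar5, Acinar6, Acinar44, Acinar105, Acinar182 and Acinar188, and their values are given in that order. They are set against the other cells with at least 40000 UMIs, while 18 shallower cells were kept out of the comparison. All cells, the 6 included, share 1 label: wild-type C57BL6 mice, acinar cells prepared by enzymatic digestion of the pancreas and a density gradient, and 9 days in Matrigel, a basement membrane gel in which the cells formed organoids. The RNA was read by Smart-seq3, a plate method that covers whole transcripts and tags their 5′ ends with UMIs, alongside DNA methylation and chromatin accessibility, which were not analysed here. No treatment or second genotype was part of the design, and no animal, culture or sort is named for any cell.

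Because the 6 cells were picked by the same libraries that are described, and because cells of 1 label are not replicates, no test is given and every value below is a description. Levels of a set of cells are CPM of the summed UMIs with exact 95% Poisson intervals, which cover counting error only. Exact binomial intervals, given for shares of cells, take the cells as independent and leave out variation between animals or cultures. The levels count molecules and were not divided by gene length. A gene was called higher or lower when the pooled levels, with 5 CPM added to both, differed at least 4-fold.

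Fibroblasts build the connective tissue around epithelia: they secrete collagens, proteoglycans and matrix glycoproteins, and they are told from epithelium by vimentin filaments, mesenchymal cadherins and factors such as Prrx1, Twist1 and Zeb1. In the pancreas they include stellate cells, which store retinoids at rest and become contractile, collagen-secreting myofibroblasts after injury or when they are cultured, and adventitial fibroblasts around ducts and vessels. Pericytes and smooth muscle cells of vessels share Pdgfrb and contractile genes with them and are told apart by genes such as Rgs5, Abcc9 and Myh11.

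The libraries of the 6 cells were of ordinary depth, with a median of 169027 UMIs (133748 to 228062) and 11283 to 13032 genes, against a median of 171929 UMIs (41560 to 329522) in the other cells. Mitochondrial genes held 0.691 to 1.01% of UMIs in the 6 cells and a median of 0.995% in the others. At this depth a gene without a UMI in the 6 cells can still stand at up to 2.81 CPM, and one without a UMI in the others at up to 0.113 CPM (3 counts of the summed UMIs). Whether a library held RNA of more than 1 cell was not tested, and no doublet caller was run.

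By the rule, the 6 cells held 3920.0, 12414, 6362, 5923, 8015 and 6292 CPM of the 10 genes. The nearest cells below the threshold were Acinar108 at 274 CPM, where every such UMI was Pdgfrb, Acinar187 at 171.8 and Acinar183 at 91.8, so that thresholds of 500 and 3000 CPM chose the same 6 cells. Col1a1 and Col1a2, which encode the chains of type I collagen, made up most of the sum. Col1a1 stood at 1215, 3794, 2649, 1289.7, 2609 and 1632 CPM in the 6 cells, and no other cell exceeded 20.2 CPM. Col1a2 stood at 1315, 3619.7, 2658, 1715, 2333 and 1873 CPM in them, with the highest other cell at 65.6. Type III collagen, Col3a1, was at 164.1 to 1413 CPM, lowest in Acinar44 and Acinar5. The receptor for platelet-derived growth factor Pdgfrb was at 276, 619, 520.4, 927, 1062 and 522 CPM, and its relative Pdgfra was at 74.5, 32.3, 46.9, 131.5, 29.9 and 67.3. Decorin (Dcn, 60.95 to 225) and lumican (Lum, 118.4 to 689.8), small proteoglycans that bind collagen fibrils, were present in every one of the 6 cells, and Dcn had no UMI in the other cells. The last 3 genes of the rule were uneven: Thy1 was detected in Acinar5, Acinar44 and Acinar105, desmin (Des) in all but Acinar5, and the smooth muscle actin Acta2 was at 469, 3097, 0, 12.5, 29.9 and 5.61 CPM.

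Markers that the rule did not use also set the 6 cells apart. Matrix Gla protein (Mgp), an inhibitor of mineral deposition in soft tissue, was at 74.5, 1529, 14253, 7193, 5951 and 6034 CPM in the 6 cells and at 3.59 CPM (2.91 to 4.39) in the others, where its highest cell had 293. Only Acinar5 lay within the range of the other cells for this gene. The intermediate filament gene Vim was at 2394, 1284, 595, 1847, 837 and 168.2 CPM, highest in Acinar5 and lowest in Acinar188, with no other cell above 70.1. Sparc, a collagen-binding matrix protein, was at 2846, 6710.3, 8575, 2817, 6737 and 3869 CPM in the 6 cells, and here the other cells were not empty, with a median of 14.2 and a highest cell at 879.6. With every cell thinned to 40000 UMIs, Vim was detected in 6 of 6 fibroblast-rich cells and in 6 of the others (3.87%, exact binomial interval 1.43 to 8.23%), or 13 of the others without thinning. The same thinning found Col1a1 and Mgp in all 6 fibroblast-rich cells, and Col1a1 in 7 and Mgp in 5 of the other cells.

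**Figure D1:**
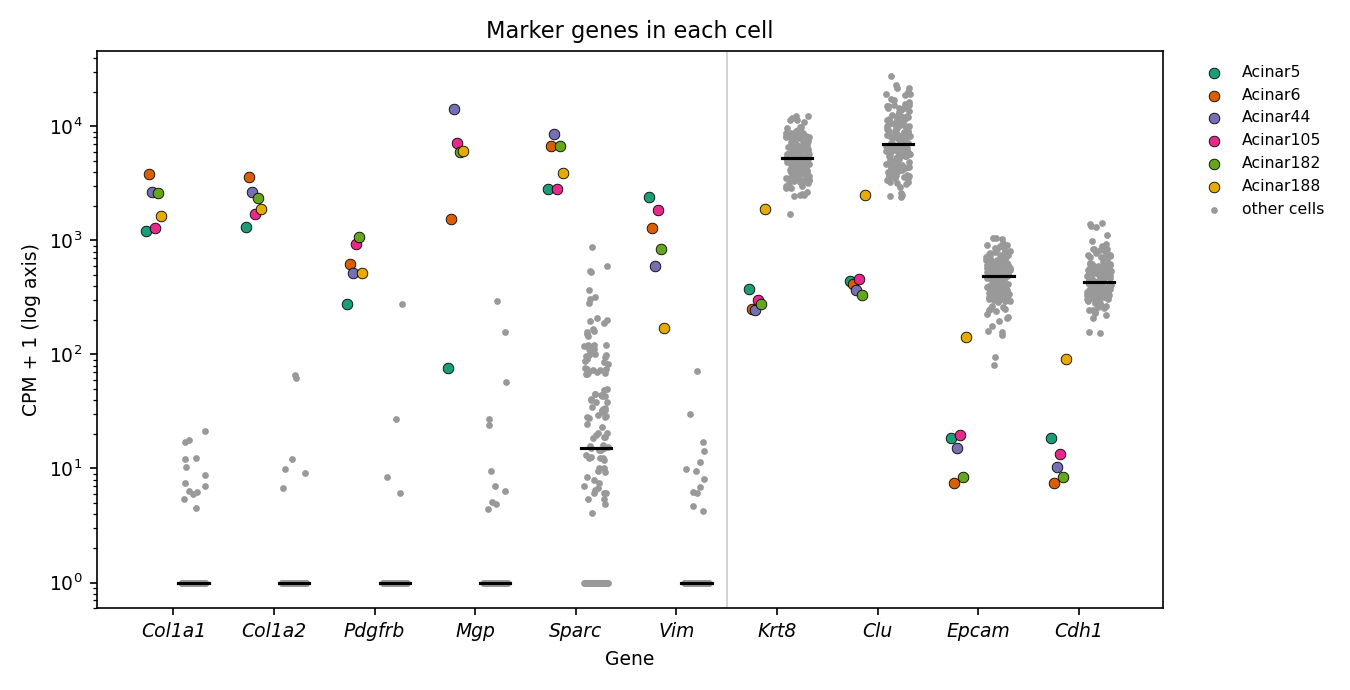
Level of 6 mesenchymal genes (left) and 4 epithelial genes (right of the line) in each cell, as CPM + 1 on a log axis; coloured points are the 6 fibroblast-rich cells, grey points the other cells and black bars the medians of the others. Col1a1 lies at 1215 to 3794 CPM in the 6 cells and at most 20.2 in the others, while Cdh1 lies at 6.45 to 89.7 CPM in the 6 cells and from 151.9 upward in the others.

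The other cells were epithelial by the same measure. Krt8, a keratin of simple epithelia, stood at 373, 252, 244, 301, 277 and 1879 CPM in the 6 cells, against a median of 5333 and a lowest cell of 1702 in the others. E-cadherin (Cdh1), which joins epithelial cells, was at 17.5, 6.45, 9.38, 12.5, 7.48 and 89.7 CPM in the 6 cells and at no less than 151.9 in any other cell. The adhesion molecule Epcam was at 17.5, 6.45, 14.1, 18.8, 7.48 and 140.2 CPM, against a median of 487. Acinar188 was the highest of the 6 for each of these, and it exceeded the lowest of the other cells for Krt8 and Epcam. In GRCm38, the build named in the submitters' processing notes, Col1a1 lies on chromosome 11 at 94936224 to 94953042, Col1a2 on chromosome 6 at 4504814 to 4541544, Pdgfrb on chromosome 18 at 61045150 to 61085061, Mgp on chromosome 6 at 136872435 to 136875823, Vim on chromosome 2 at 13573927 to 13582826, Cdh1 on chromosome 8 at 106603351 to 106670246 and Krt8 on chromosome 15 at 101996698 to 102004482, per GENCODE annotation.

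Over all genes at 10 CPM or more in either set of cells, 11763 in number, 858 were called higher in the 6 cells (7.29%) and 638 lower (5.42%), with a median log2 ratio of -0.08. Every one of the 6 cells lay above every other cell for 1.18% of these genes and below every other cell for 0.0765%, which is 9 genes. Since the cells were chosen by fibroblast genes of these libraries, these shares describe how far apart the chosen cells lie and are no evidence for the choice. Counts of list genes called below are to be read beside 7.29% higher and 5.42% lower, which are shares of genes that passed the filter. For any list that holds genes of the rule, the count and sum in part restate how the cells were chosen. Where the number passing is not given, a list's total is all its genes with an entry. The 25 genes with the highest ratio and a UMI in all 6 cells were led by Mgp (log2 ratio 9.43), Col1a2 (8.54), Col1a1 (8.50) and Col8a1 (8.40), a short-chain collagen. Lipoprotein lipase (Lpl, 7.90), Col15a1 (7.77), Vim (7.71) and the chemokine Cxcl14 (7.68) followed. Secreted proteins filled most of the remaining places: Serpinf1, which encodes the anti-angiogenic factor PEDF, the matrix proteins Sparcl1, Fstl1, Ccdc80, Fbn1, Bgn and Tnc, the gelatinase Mmp2 and the collagens Col3a1, Col5a1 and Col5a2. Inside the cell, Lsp1 binds actin, Nkd2 restrains Wnt signalling, Rcn3 is a calcium-binding protein of the endoplasmic reticulum and Ank exports pyrophosphate. For all but 4 of these genes the 6 cells lay above every other cell, which a ranking by ratio largely brings with it. Col1a1, Col1a2, Col3a1 and Pdgfrb among the 25 are genes of the rule.

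**Figure D2:**
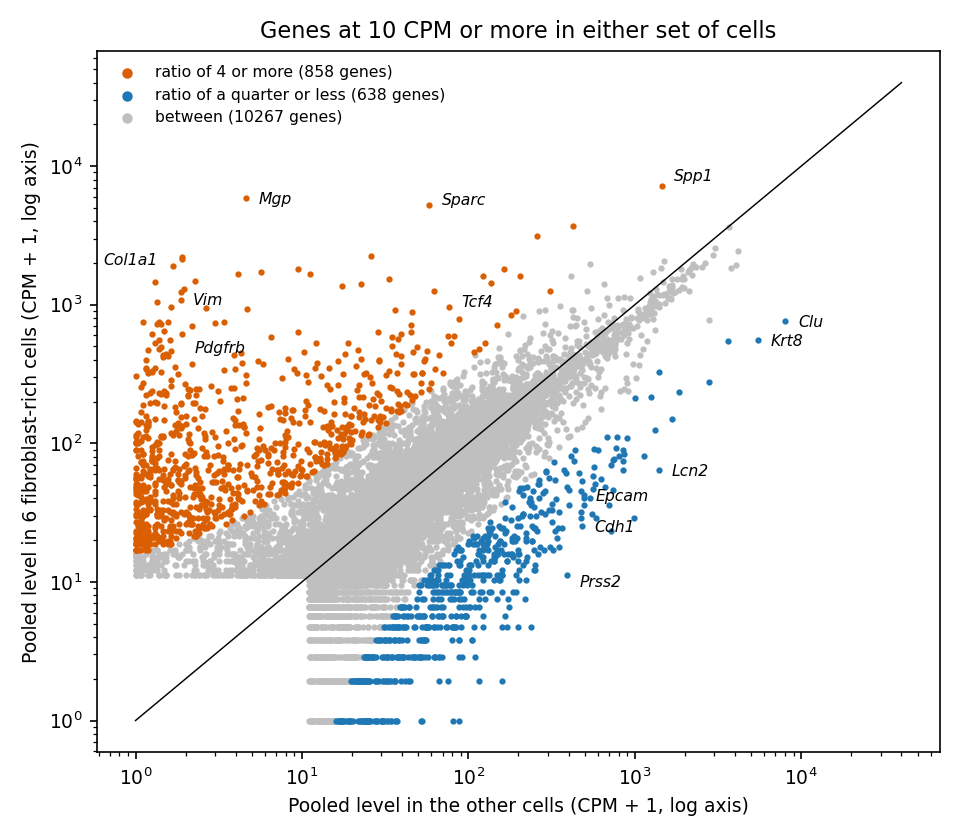
Pooled level of each gene kept in the 6 fibroblast-rich cells (vertical) against the other cells (horizontal), as CPM + 1 on log axes, with the line of equal level; orange marks a ratio of at least 4 and blue the inverse. Mgp, Sparc and Spp1 reach 5912, 5204 and 7237 CPM in the 6 cells, while Clu and Krt8 stand at 759 and 558 CPM there and at 8026 and 5530.0 in the others.

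Among nuclear genes other than those of ribosomal proteins, the most abundant transcript of the 6 cells was Spp1 (osteopontin, a secreted phosphoprotein made by duct cells and by fibroblasts), at 7237 CPM (7076 to 7400.1) pooled. It was at 1714, 174.2, 18552, 5822, 3694 and 10829 CPM in the 6 cells and at a median of 1222 in the others, so that Acinar5 and Acinar6 lay in the ordinary range of the other cells and Acinar44 and Acinar188 above the highest of them (10549). Next came Mgp at 5912 CPM (5767 to 6059.8), Sparc at 5204 CPM (5068 to 5343) and the insulin-like growth factor binding protein Igfbp7 at 3726 CPM (3611 to 3844). Actb stood at 3619 CPM (3506 to 3735) in the 6 cells, against 3689 in the others. The lectin Lgals1 (3113 CPM), the protease inhibitor Timp1 (2253), Pmepa1 (1969.8), a target of TGF-β signalling, and Col8a1 (1912) were also among the first 15, with the widely expressed Ftl1, Eef2 and Anxa2 at 2064, 1951 and 1923. Gm28437 (2268) is a pseudogene copy of mitochondrial sequence, and reads may be shared with the original.

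Most of the collagen genes detected were higher in the 6 cells. Of the 11 fibrillar collagen genes with an entry, 8 passed the filter on low values and 7 were called higher, with summed levels of 3644, 11969, 7103, 5584, 9062 and 6253 CPM in the 6 cells and a median of 37.4 in the others. Col1a1, Col1a2 and Col3a1 are among these 7 and belong to the rule, so the count and the sum in part restate how the cells were chosen. Type V collagen, which sets fibril width, was at 377, 1684, 849, 363, 815 and 292 CPM for Col5a1 and 320.1, 1542, 474, 851, 1450.5 and 348 CPM for Col5a2, highest in Acinar6 for both. Col27a1 (170.4 CPM in the 6 cells, against 60.2 in the others) was between the limits, and Col2a1, the collagen of cartilage, had no UMI in the 6 cells.

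Of the 31 other collagens, 15 passed the filter and 12 were called higher. Col8a1 was at 539, 2187, 5434, 563, 2176 and 224 CPM in the 6 cells, and Col15a1, found at the border of basement membranes, at 171.01, 1503, 2208, 1196, 1249 and 1565. Col4a1 and Col4a2, the main chains of basement membranes, separated Acinar5 from the rest: Col4a1 was at 26.3, 2716, 1838, 1690.4, 2834 and 1351 CPM and Col4a2 at 17.5, 1381, 1003, 714, 1107 and 864, against pooled levels of 122.2 and 87.1 in the other cells. The endostatin-bearing Col18a1 was at 257 CPM in the 6 cells, against 201 in the others. Collagen-modifying genes were also called higher, 20 of 33. The collagen chaperone Serpinh1 was at 978, 1761, 736, 720.0, 845 and 510.3 CPM in the 6 cells, against 35.02 in the others. The crosslinking enzyme Loxl2 varied from 11.2 CPM in Acinar188 to 1819.5 in Acinar6, against 8.51 in the others. P4hb, a subunit of prolyl hydroxylase that serves many secretory proteins, was at 797 CPM in the 6 cells, against 449 in the others and was not called.

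Matrix glycoproteins held more UMIs than any other matrix list, at 12128, 38209.9, 65699.9, 31240.4, 38543 and 40224 CPM in the 6 cells and a median of 3164 in the others, and 33 of 47 were called higher. Spp1, Mgp, Sparc and Igfbp7 led them. Igfbp7 was at 723, 3394, 5701, 3975, 4979.5 and 4329 CPM in the 6 cells, against 421 in the others. Fibronectin (Fn1) was at 1315, 4207, 1594, 1064, 1645 and 1408 CPM, against a median of 29.96, but single other cells reached 2826. Of 22 proteoglycan genes, 10 were called higher and 1 lower. The proteoglycans decorin and lumican are genes of the rule, so this count is not independent of the choice of cells. Biglycan (Bgn) was at 995, 2078, 1843, 2072, 1899 and 1424 CPM in the 6 cells, against 10.2 in the others, while the epithelial syndecan Sdc4 was the lower one, at 49.6 CPM in the 6 cells, against 261 in the others. Aggrecan (Acan), a proteoglycan of cartilage, had no UMI in the 6 cells.

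Laminins, the linkers of basement membranes, and integrins, their receptors, differed by chain. Lamb1 was at 610.4 CPM in the 6 cells, against 38.5 in the others, and Lama2 at 245 and 1.40, whereas Lama5 (44.9 against 399) and Lamb3 (19.7 against 222) were lower. In all, 3 of 11 laminin genes were called higher and 4 lower. Of 19 integrin genes, 16 passed the filter, 6 were called higher and 4 lower. Among integrins, the fibronectin receptor chain Itga5 was at 741, 1148, 567, 125.2, 292 and 213 CPM in the 6 cells, against 17.97 in the others. Itgb5, a receptor chain for vitronectin, was at 425 CPM in the 6 cells, against 38.5 in the others. Itga3, which binds laminins in epithelia, was at 43.1 CPM in the 6 cells, against 279 in the others, and the shared partner Itgb1, at 570.2 and 235, was not called.

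Proteases and their inhibitors were mostly higher, 20 of 31, and uneven between the 6 cells. Timp1 was at 338, 2342, 5556, 207, 336 and 3948 CPM, high in Acinar6, Acinar44 and Acinar188, with no epithelial cell above 176.8. The membrane-bound collagenase Mmp14 was at 482, 568, 2293, 1027, 3619 and 1071 CPM in the 6 cells, against 136.01 in the others. Serpine2, an inhibitor of thrombin, was at 0, 161.3, 2541, 1014, 1353 and 3286 CPM, with no UMI in Acinar5. Mmp7, a metalloproteinase of injured epithelium, went the other way, at 35.1, 45.2, 37.5, 12.5, 44.9 and 718 CPM in the 6 cells and a median of 1629 in the others, and only Acinar188 held an appreciable amount.

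Marker lists of mesenchymal subtypes were set beside each other to describe which the 6 cells resembled. On the general mesenchymal list 23 of 24 genes were called higher, with 14956, 36294, 40616, 27741, 35208 and 24938 CPM in the 6 cells and a median of 463 (range 11.1 to 3961) in the others. Fibroblast genes chose the cells, so this count and these sums are not independent of the choice. The list of activated stellate cells had 16 of 18 genes higher and that of myofibroblasts 17 of 20. These are the largest shares among the subtype lists, but the lists overlap: 7 of the 18 activated stellate genes are also on the matrix glycoprotein list, and 3 belong to the rule. The myofibroblast, pericyte and smooth muscle lists hold 1, 1 and 2 genes of the rule. Sparc, Spp1, Lgals1 and Timp1 led the activated stellate list in level. Lgals1 was at 5121, 4097, 2489.6, 2091, 2976 and 1452 CPM in the 6 cells, against 256 in the others.

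On the myofibroblast list, Col8a1, Fn1 and Ltbp2, a microfibril protein related to the TGF-β binding proteins, were the most abundant. Ltbp2 was at 438, 2407, 1402, 0, 22.4 and 1245 CPM, with no UMI in Acinar105. Inhba, which encodes a chain of activin, was at 951, 1626, 717, 808, 1174 and 207 CPM in the 6 cells, against 44.6 in the others. Of the members that passed the filter, Igfbp3 and Sdc1 were not called, at 78.6 and 204 CPM in the 6 cells and 28.3 and 319 in the others. The contractile marker that names this state, Acta2, was high in Acinar6 (3097 CPM) and Acinar5 (469) and at most 29.9 CPM in the other 4 fibroblast-rich cells.

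Quiescent stellate markers were partly present. Of 15 genes with an entry, 10 passed the filter and 5 were called higher. Nestin (Nes) was at 122.8, 748, 1209.6, 187.8, 426 and 61.7 CPM in the 6 cells, against 20.6 in the others, and cytoglobin (Cygb), an oxygen-binding protein of stellate cells, was at 0, 0, 342, 576, 1062 and 679, with no UMI in Acinar5 or Acinar6. Lrat, the enzyme that esterifies retinol for storage, had 1 UMI in all, in Acinar5, and Reln, Vipr1 and Rgs5 had none in the 6 cells, which allows up to 2.81 CPM.

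Pericyte markers were present in part. Cspg4 (NG2, a proteoglycan of pericytes and of activated mesenchymal cells) was at 246, 381, 975, 376, 546 and 292 CPM in the 6 cells, against at most 15.7 in the others. Heyl, a target of Notch signalling, was at 0, 0, 164.1, 213, 262 and 78.5 CPM and Notch3 at 0, 12.9, 56.3, 62.6, 59.8 and 67.3, each low or absent in Acinar5 and Acinar6. Rgs5, Rgs4, Abcc9, Higd1b, Vtn and Angpt1 had no UMI in any of the 6 cells, and Rgs5 was at 14.5 CPM in the others. Of the list's 19 genes, 10 passed the filter and 7 were called higher. Among genes of smooth muscle, 9 of 19 were called higher. Caldesmon (Cald1), which many motile cells make, was at 1557, 1536, 1242, 1935, 2206 and 1447 CPM in the 6 cells, against 205 in the others. The genes of differentiated smooth muscle Myh11 and Cnn1 had no UMI in the 6 cells, nor did Myocd, the factor that drives them.

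Lists of inflammatory and adventitial fibroblasts went in both directions. Of 18 inflammatory genes, 5 were called higher and 4 lower. The chemokine Ccl2 came almost wholly from Acinar6 (1161 CPM), Cxcl12 from Acinar5 and Acinar6 (228 and 174.2), and Dpt and C3 from Acinar188 (432 and 437), where the others held 0.265 CPM of Dpt and 415 of C3. The neutrophil chemokine Cxcl1 was lower, at 10.3 CPM in the 6 cells, against 194 in the others, and Clec3b and Cfd had no UMI in the 6 cells. Of 20 adventitial genes, 9 were called higher and 4 lower. Fibrillin-1 (Fbn1) was at 232, 1129, 1172, 438, 994 and 555 CPM in the 6 cells, against at most 20.2 in the others. Igfbp5 was at 0, 19.4, 4745, 0, 4045 and 44.9 CPM, high in Acinar44 and Acinar182 alone. Dpp4 and Clec3b, which mark adventitial progenitors, had no UMI in the 6 cells. They were the only 2 of the 20 adventitial genes without one. Ly6a (Sca-1) was at 17.5, 6.45, 14.1, 12.5, 37.4 and 151.4 CPM in the 6 cells, against a median of 474 in the epithelial cells.

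Other cell types that a pancreatic preparation could hold were also read. Of 19 mesothelial genes, 3 were called higher, among them Aldh1a2, which makes retinoic acid, at 188.5, 1381, 42.2, 6.26, 67.3 and 0 CPM. Wt1 of the same list had 17 UMIs in the 6 cells (15.9 CPM pooled) and 0 in the others. Msln and the keratins on that list were lower, and Upk3b, Lrrn4, Gpm6a and Cd74 had no UMI in the 6 cells. The endothelial list summed to 144.7, 490.4, 469, 476, 531 and 628 CPM in the 6 cells and a median of 26.1 in the others. Of its 17 genes with an entry, 5 passed the filter, 2 were called higher and none lower. The list consisted mainly of Eng (74.5, 477, 366, 294, 239 and 196 CPM) and Flt1 (26.3, 0, 4.69, 31.3, 262 and 370.1), receptors that mesenchymal cells can also carry. Vwf, Tie1, Sox17 and Robo4 were its only genes without a UMI in the 6 cells. Pecam1 stood at 16.9 CPM, against 13.6 in the others. The receptor gene Kdr had 7 UMIs in the 6 cells (6.55 CPM pooled) and 0 in the others. Whether endothelial cells added RNA was not tested. Immune genes held 0 to 207 CPM in the 6 cells and a median of 509.6 in the others, nearly all of it Cd14. Ptprc, Cd68, Csf1r and C1qa had no UMI in the 6 cells. Of the adipocyte list only Lpl was called higher, and Plin1, Plin4, Cfd and Cidec had no UMI.

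**Figure D3:**
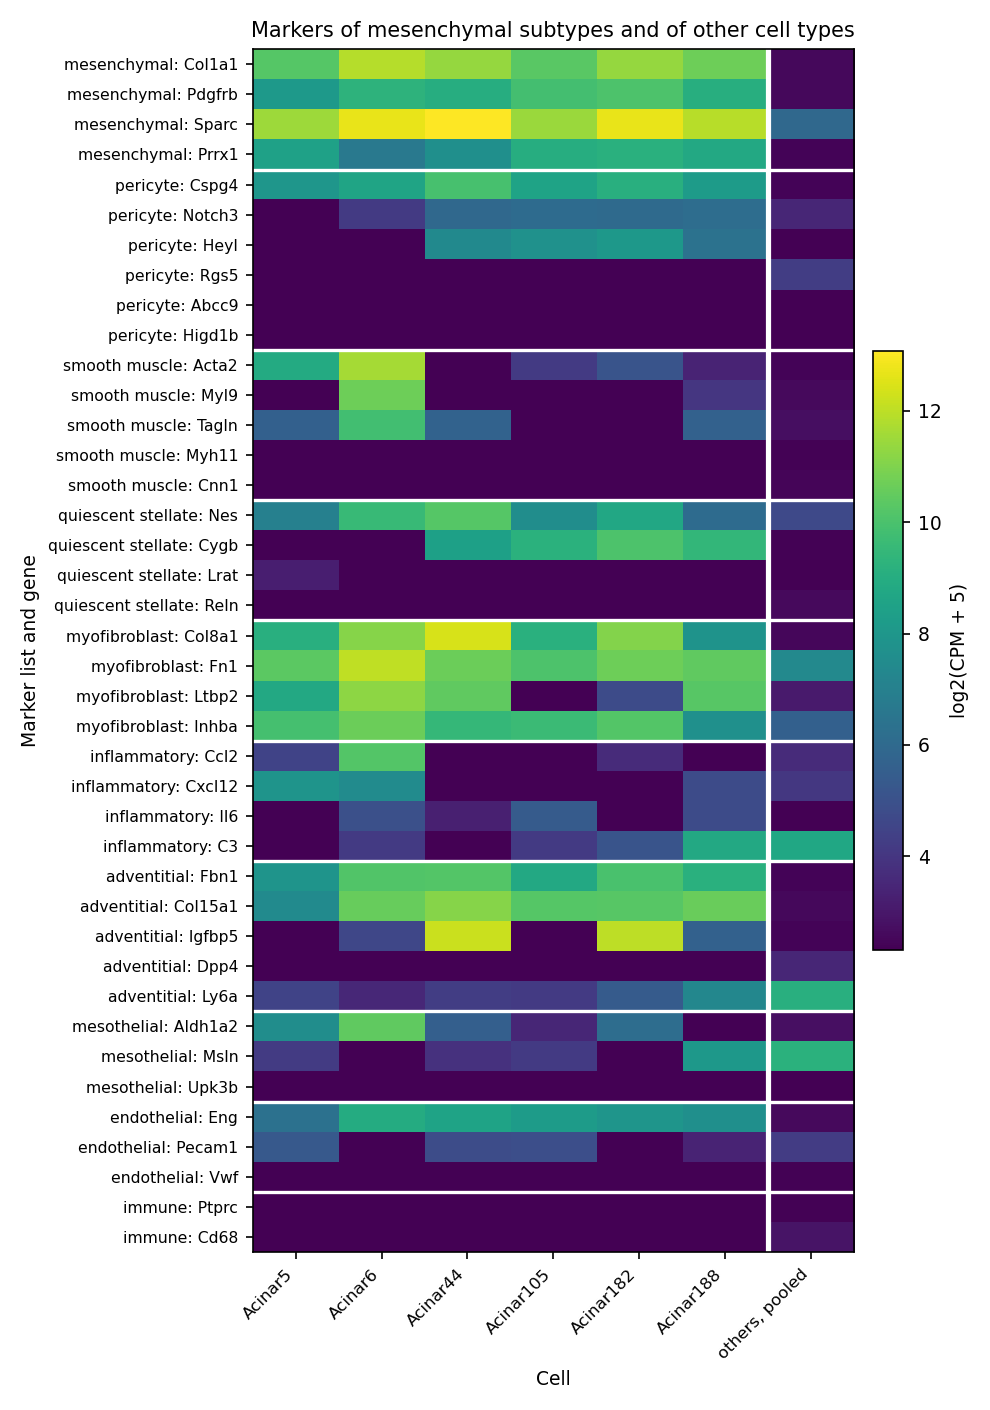
Level of subtype and other cell type markers as log2(CPM + 5), with a column for each fibroblast-rich cell and, right of the white line, the pooled level of the other cells; rows are grouped by marker list. Mesenchymal rows are bright across the 6 cells, as are Col8a1, Fn1 and Inhba of the myofibroblast rows, Acta2, Myl9 and Tagln are bright in Acinar6, and Rgs5, Abcc9, Higd1b, Myh11, Cnn1, Upk3b, Vwf and Ptprc are at 0 UMIs in all 6.

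Acta2 and Myl9 were among the 15 genes with the widest range over the 6 cells, and the sites through which serum response factor and myocardin factors are known to act on contractile genes, CArG boxes, lie close to their start sites. They are shown here for Acta2 and Myl9, both high in Acinar6, as RefSeq gives the sequence in GRCm38.p6. The search covered the 200 bases before each start for a CArG box with at most 1 base other than A or T in its core, a form that reads the same on both strands, and matches are in capitals.
Acta2, chr19:34255438-34255467, minus strand: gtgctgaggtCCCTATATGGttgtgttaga
Acta2, chr19:34255388-34255417, minus strand: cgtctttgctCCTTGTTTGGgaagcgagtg
Myl9, chr2:156775264-156775419, plus strand: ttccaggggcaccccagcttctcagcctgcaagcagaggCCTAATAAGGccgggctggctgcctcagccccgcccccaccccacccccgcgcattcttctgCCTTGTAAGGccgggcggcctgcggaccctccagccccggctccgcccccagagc
The 2 boxes of Acta2 begin 84 and 34 bases before the RefSeq start, in a stretch that GENCODE counts as the first exon of a longer transcript, and those of Myl9 lie further from its start, outside any exon. Such a match is found in 6.93% of 32851 mouse promoters of the same length. The collagen gene Col1a2, which was high in all 6 cells, is shown for another motif, the CCAAT box. This box (CCAAT or ATTGG on either strand) is found in 29.3% of promoters. Col1a2 has 1, shown in capitals, in a stretch that GENCODE counts as exon. Whether Col1a2 has a CArG match was not tested.
Col1a2, chr6:4505497-4505526, plus strand: aaaagaatggaaCCAATttaagaagccccg
A match describes the letters only. No binding was measured in these files.

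Transcription factors and positional genes also separated the cells. Of 44 mesenchymal factors, 27 passed the filter, 18 were called higher and none lower. With 5 CPM added, a gene that passed only through the 6 cells could not be called lower, so the lack of lower genes was partly fixed in advance. Tcf4 was at 552, 781, 1031, 1409, 905 and 1228 CPM in the 6 cells, against 75.8 in the others, and Prrx1, a homeobox factor of limb and connective tissue mesenchyme, at 351, 96.8, 202, 507, 561 and 443, against at most 15.2. Nr2f2 was at 212 and 16.9. Zeb1 (58.1 to 422 CPM), Twist1 (12.9 to 50.1) and Snai1 (29.9 to 399), repressors of epithelial genes, each had a UMI in all 6 cells and lay above every other cell. Foxf1 and Osr2, factors of gut mesenchyme, had no UMI in the 6 cells. Foxf2 and Osr1 did, with 5 and 8 UMIs (4.68 and 7.49 CPM pooled) and 0 in the others.

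The homeobox factor Nkx2-3, known from the mesenchyme of spleen and gut, was at 74.5, 64.5, 154.7, 143.99, 149.5 and 241 CPM in the 6 cells, and had 1 UMI in 1 of the others. Hox genes, which record position along the body axis, gave 206 UMIs in the 6 cells over 16 of 17 genes, against 1 UMI in 1 of the others, although the 6 cells held 1068138 UMIs of all genes and the others 26439840. After thinning, a Hox UMI was found in 6 of 6 fibroblast-rich cells and in 0 of the others (exact binomial interval up to 2.35%), and the same held for Nkx2-3. Hoxa5 was at 61.4, 167.8, 56.3, 6.26, 37.4 and 0 CPM and Hoxb4 at 13.2, 19.4, 93.8, 6.26, 52.3 and 61.7, at least 479-fold and 371-fold higher pooled than the limit of 0.113 CPM that 0 UMIs allow over the other cells. Hoxb7 and Hoxb8, both at 15.9 CPM pooled, had a UMI in every one of the 6 cells. Hoxa9 had no UMI in any of them.

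Of 18 imprinted genes, 11 passed the filter, 8 were called higher and none lower. The list summed to 70.5 CPM in the others, and a gene below 10 CPM there could not be called lower. The noncoding RNA Meg3 was at 417, 1736, 825, 131.5, 0 and 527 CPM, and its neighbour Rian at 184.2, 297, 23.4, 6.26, 0 and 67.3, with no UMI in the others. Both were absent from Acinar182. H19, a noncoding RNA of fetal tissues, was seen in Acinar105 alone, at 682 CPM (560.3 to 823). Dlk1 and Mest had no UMI in the 6 cells.

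Signals of the TGF-β family and its relatives were higher in part. Of 37 genes, 27 passed the filter, 10 were called higher and none lower. A gene below 10 CPM in the others could not be called lower. Id3, a target of BMP signals, was at 412, 1303, 2916, 851, 1667 and 1996 CPM in the 6 cells, against 32.1 in the others, and the ligand Tgfb1 at 118.4, 316, 1064, 263, 650.5 and 224, against 17.2 in the others. Of 47 growth factor genes, 34 passed the filter, 12 were called higher and 5 lower. The most abundant was pleiotrophin (Ptn), at 0, 109.7, 23.4, 3143, 52.3 and 348 CPM, nearly all in Acinar105. The epithelial ligands Areg (47.7 CPM in the 6 cells, against 390.3 in the others) and Wnt7b (24.3 and 203) were lower, and Fgf10, Rspo2 and Dll1 had no UMI in the 6 cells. Of 44 receptor genes, 37 passed the filter, 12 were called higher and 4 lower. The Wnt receptor Fzd1 was at 30.7, 103.2, 877, 1014, 1458 and 1082 CPM in the 6 cells, against 44.2 in the others, low in Acinar5 and Acinar6, and Fgfr1 at 339.8 and 7.90. Kit had no UMI in the 6 cells.

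Epithelial genes were lower in the 6 cells, though few were undetected. Of 48 epithelial genes with an entry, none was called higher and 40 were called lower, with a median log2 ratio of -2.97 over the 45 that passed the filter. The list summed to 1302, 1007, 1632, 1371, 1637 and 9976 CPM in the 6 cells, 2 of its genes having no UMI in them, against a median of 23333 and a lowest cell of 8729.9 in the others. Clu, a secreted chaperone that was the most abundant of the injury genes in the organoids, was at 443, 413, 370.4, 457, 329 and 2523 CPM in the 6 cells and at a median of 7055 in the others. The 9 genes for which all 6 cells lay below every other cell were Cdh1, the tight junction genes F11r, Cgn and Lsr, the membrane linker Ezr, the protease inhibitor Spint1, the adaptor Grb7, the acyltransferase Mboat1 and Tpd52. Ezr was at 65.8, 25.8, 51.6, 50.1, 59.8 and 219 CPM in the 6 cells and at no less than 292 in the others, F11r at 21.9, 12.9, 9.38, 25.04, 14.95 and 56.1, with no epithelial cell below 95.4, and Lsr at 13.2, 0, 4.69, 12.5, 0 and 61.7, with none below 62.8. Cgn was seen in Acinar188 alone, with 5 UMIs. Without Acinar188 the genes with all remaining cells below the others numbered 58.

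Most duct genes were lower in the 6 cells, but the sum of the list was not lower in each of them. Of 28 duct genes, 17 were called lower and only Spp1 higher. With Spp1 the list summed to 2447, 626, 19017, 6448, 4441 and 16459 CPM in the 6 cells, above the others' median of 11361 in Acinar44 and Acinar188, and its pooled log2 ratio was -0.41 on UMIs and 0.26 on reads. Krt7 was at 193, 32.3, 126.6, 25.04, 224 and 2658 CPM in the 6 cells and at a median of 3411 in the others, Krt19 at 48.2, 77.4, 75.02, 125.2, 142.1 and 970.1, against a median of 1493, and the factor Onecut2 at 26.3, 38.7, 18.8, 25.04, 0 and 381, against 822. Of 27 acinar genes 15 were called lower, but the pooled level of the others came from a few enzyme-rich cells. The summed list was at 131.5, 135.5, 121.9, 175.3, 232 and 241 CPM in the 6 cells, against a median of 139.1 in the others. The trypsinogen gene Prss2 was at 8.77, 0, 4.69, 12.5, 22.4 and 16.8 CPM in the 6 cells, while its median in the others was 9.95 and its highest cell 54743. The log2 ratio of its pooled levels was -4.68, and among cells with title numbers from 97 on it was 0.19. The chymotrypsinogen gene Ctrb1 was at 92.1, 90.3, 93.8, 106.4, 104.7 and 168.2 CPM in the 6 cells and at a median of 86.2 in the others. Of factors that define acinar cells, Ptf1a, Rbpjl and Bhlha15 had no UMI in the 6 cells and a median of 0 CPM each in the others, where single cells reached 161.3, 250.2 and 55.6 CPM. Trypsinogen genes are near-identical copies, and reads may be split among them.

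The 25 lowest ratios included the stress and injury genes Ankrd1 (log2 ratio -4.90), Lcn2 (-4.35), Ltf (-4.31), Lrg1 (-4.05) and the chemokine Cxcl5 (-4.15). The iron carrier Trf (-4.79), the progenitor surface protein Plet1 (-4.78), Depp1 (-4.71) and Sorbs2 (-4.27) were also there. The claudins Cldn4 (-4.15) and Cldn3 (-3.98), with Cdh1 (-4.04), Wwc1 (-4.00), Wfdc2 (-4.02), Gkn2 (-3.97) and the membrane protease St14 (-3.97), were epithelial genes. The level of Gkn2 in the others came largely from few cells, with a median of 9.70 CPM and a highest cell of 20760.1. Ankrd1 was at 52.6, 0, 0, 0, 7.48 and 95.3 CPM in the 6 cells and at 984 pooled in the others. Cldn4 was at 35.1, 6.45, 18.8, 0, 37.4 and 67.3, against 582 pooled, and Lcn2, an iron-binding acute phase protein, at 8.77, 12.9, 9.38, 31.3, 14.95 and 308, against 1394. These 3 genes were highest in Acinar188 among the 6.

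Among 10287 genes at 10 CPM or more in the other cells, 0.982% had no UMI in the 6 cells. The highest of them in the others were Pdzk1ip1 at 87.4 CPM, 2210010C04Rik at 79.4 and Wfdc18 at 52.005, at least 31.1-fold, 28.3-fold and 18.5-fold lower in the 6 cells by the limit of 2.81 CPM. 2210010C04Rik is a trypsinogen-like gene, and its pooled level came mainly from the enzyme-rich cells (highest cell 11566 CPM). The next included the polarity kinase gene Prkcz (36.3 CPM in the others), the chromatin factor Mecom (35.4), the GTPase gene Rhov (33.4), the tight junction gene Marveld2 (29.01) and the nuclear receptor Nr5a2 (27.3). Their limits were between 9.72-fold and 12.9-fold. Without Acinar188, 2.38% of genes had no UMI in the remaining 5.

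**Figure D4:**
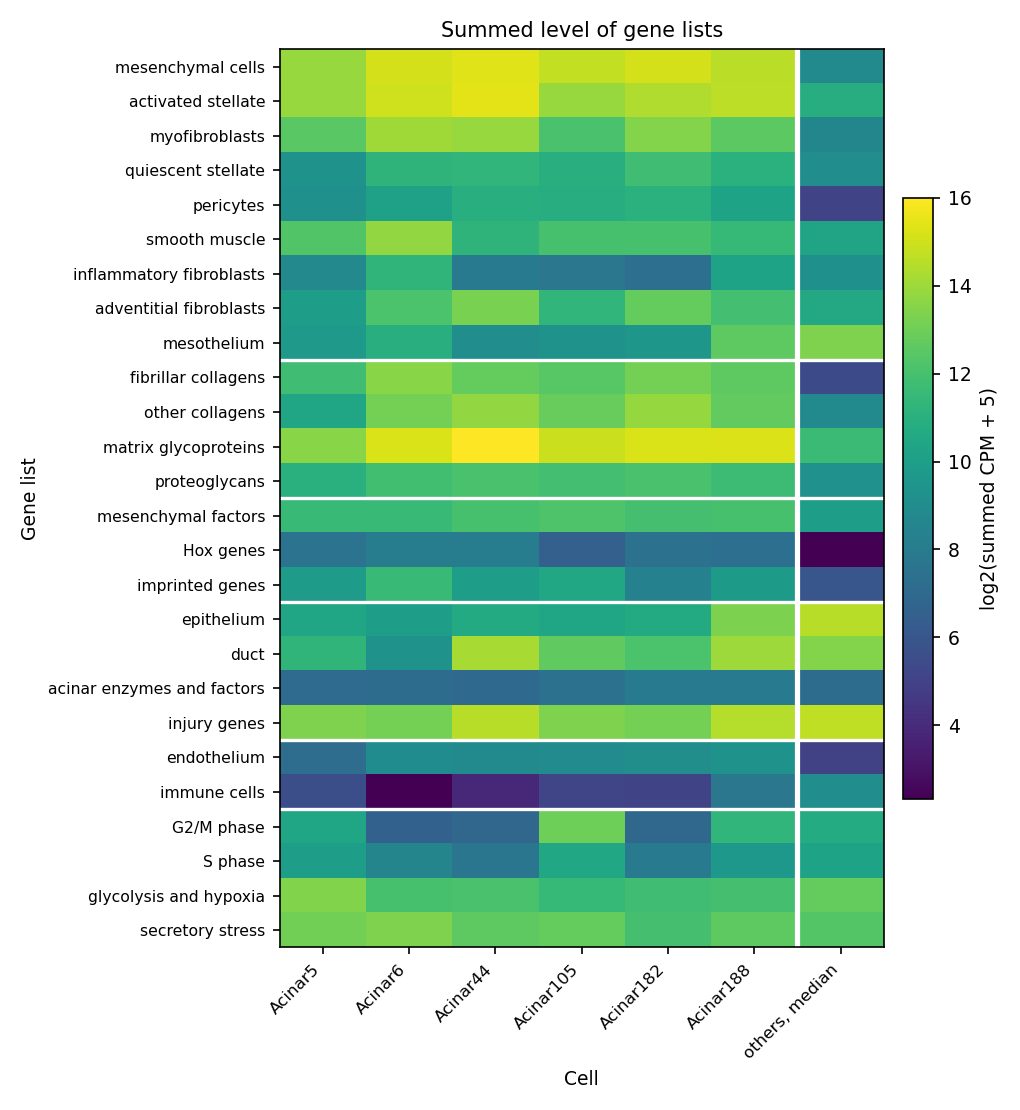
Summed level of 26 gene lists as log2(CPM + 5), with a column for each fibroblast-rich cell and, right of the white line, the median of the other cells; white lines divide subtype, matrix, factor, epithelial, other cell type and state lists. The epithelial row runs from 1007 to 9976 CPM in the 6 cells, highest in Acinar188, against 23333 in the others, and the G2/M row is highest in Acinar105.

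The 6 cells were not alike. Over the 11763 genes kept, Spearman correlations of log2(CPM + 5) between pairs of them ran from 0.605 to 0.706, with Acinar44 and Acinar182 the closest pair, and those with the pooled other cells from 0.471 in Acinar44 to 0.645 in Acinar188. These are correlations across genes within libraries of unequal depth, and genes are not replicates. For each cell, the 5 genes with the highest ratio to the other 5 cells and at least 50 UMIs were read. Each describes 1 library.

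Acinar6 had the highest sum of the smooth muscle list, 14027 CPM, against 2382 to 4911 in the other 5. Its leading genes were Myl9, a regulatory light chain of myosin, at 1671 CPM (1474 to 1888), against at most 11.2 in the other 5, the chemokine Ccl2 at 1161 CPM (998 to 1344), the GTPase Rnd1 at 626 CPM (508 to 763), the cell cycle inhibitor Cdkn1c at 613 CPM (496 to 749) and 4930448H16Rik. Tagln, which binds actin in smooth muscle, was at 43.8, 897, 46.9, 0, 0 and 44.9 CPM, and tropomyosin Tpm2 at 333, 1007, 150.03, 56.3, 0 and 106.5. Ccn2, a matricellular protein induced by tension and TGF-β, was at 206, 4149, 675, 175.3, 643 and 207 CPM, and the chemokine Ccl7 was seen in Acinar6 (400.0 CPM) and Acinar182 (7.48).

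Acinar5 shared Acta2 with Acinar6 at a lower level. Mgp, Igfbp7, Col15a1 and Col4a1, given above, were lowest in it, and Timp3 (0, 329, 1392, 419, 344 and 28.04 CPM) and Col6a2 (4.38, 135.5, 408, 532, 613 and 987) were at or near 0 in it. It had the highest Vim and Lgals1 of the 6, and its Actb was at 6805 CPM, against 6194 in Acinar6 and 1359.7 to 2400.1 in the rest. Its glycolysis and hypoxia list summed to 10804 CPM, against 2874 to 4309 in the other 5 and a median of 6877 in the epithelial cells, with Pkm at 1934, Eno1 at 1482 and Ldha at 1425 CPM. Its leading genes were Hao1, a peroxisomal oxidase known from liver, at 1158 CPM (1022 to 1306), the predicted genes Gm37590 and Gm20560, the recombination gene Rad51b at 346 CPM (274 to 432) and the lactate exporter Slc16a3 at 364 CPM (289.9 to 451). Hao1 was at most 12.5 CPM in the other 5 and at 2.76 in the epithelial cells.

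Acinar44 and Acinar182 shared Igfbp5 (above) and Col10a1, a collagen of hypertrophic cartilage, at 0, 0, 1885, 43.8, 2901 and 0 CPM. In Acinar44 the leading genes were Inmt, a methyltransferase, at 722 CPM (612 to 845) with no UMI in any of the other 5, the arginase Arg1 at 666 CPM (561 to 785), Pkp1, Slc45a3 and Fry. Ank was at 5636 CPM there, and Dmp1, an acidic matrix protein known from bone, at 1336, with 207 in Acinar105, 52.3 in Acinar182 and no UMI in the other 3 or in the epithelial cells. Cxcl14 was at 8.77, 70.97, 4501, 513, 254 and 3841 CPM, high in Acinar44 and Acinar188. In Acinar182 the collagenase Mmp13, at 807 CPM (662 to 975), and the stromelysin Mmp10, at 643 CPM (514 to 794), had no UMI in the other 5, and Stc1, a secreted hormone, was at 628 CPM (501 to 778). The BMP antagonist Grem1 was at 1054 CPM (887 to 1243) there, with 162.2 in Acinar5, and 4930445E18Rik was the remaining leading gene.

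Acinar105 had the highest G2/M genes, Lpl and Ptn. H19 led it, followed by the aggrecanase Adamts5 at 651 CPM (532 to 789), the decoy receptor gene Tnfrsf26 at 551 CPM (442 to 679), Homez and Tmtc2. Lpl was at 8.77, 148.4, 117.2, 5835, 778 and 2854 CPM and Ptn at 3143 CPM in this cell. The 22 genes of the G2/M phases summed to 1381, 90.3, 107.8, 8133, 119.6 and 2552 CPM in the 6 cells, against a median of 1712 in the others. After thinning, Acinar105 had a UMI of 22 of these 22 genes, Acinar188 of 20, Acinar5 of 14 and Acinar6, Acinar44 and Acinar182 of 4, 4 and 2, against a median of 13 in the others. The topoisomerase gene Top2a was at 13.2, 0, 9.38, 1183, 0 and 258 CPM and Ube2c at 78.9, 19.4, 0, 1020.5, 0 and 449. Of the cell cycle inhibitors, Cdkn1a was at 65.8, 632, 1439, 519.6, 2871 and 505 CPM, highest in Acinar182, where the G2/M list was low.

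Acinar188 carried epithelial RNA beside the fibroblast genes. Over 32 epithelial genes at 100 CPM or more in the others, its median level was 32.5% of theirs (lower and upper quartile 24.5 and 45.7%), and all 32 had a UMI. In the other 5 cells the medians were 2.83 to 4.54%, with 21 to 27 genes detected. Krt7, Mmp7 and Clu, given above, were also highest in Acinar188. The general mesenchymal list was at 24938 CPM in it, within the range of the other 5, although Vim (168.2 CPM) was the lowest of the 6. Its leading genes were the acute phase serum amyloid gene Saa3 at 2226 CPM (2013 to 2456), with no UMI in the other 5, thrombospondin 4 (Thbs4) at 1396 CPM (1228 to 1581), dermatopontin (Dpt) at 432 CPM (341 to 539.7), and 1700066J03Rik and Dock3. Without this cell the epithelial list stood at 1392 CPM pooled, against 2825 with it. Without it, 883 genes were called higher and 759 lower.

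**Figure D5:**
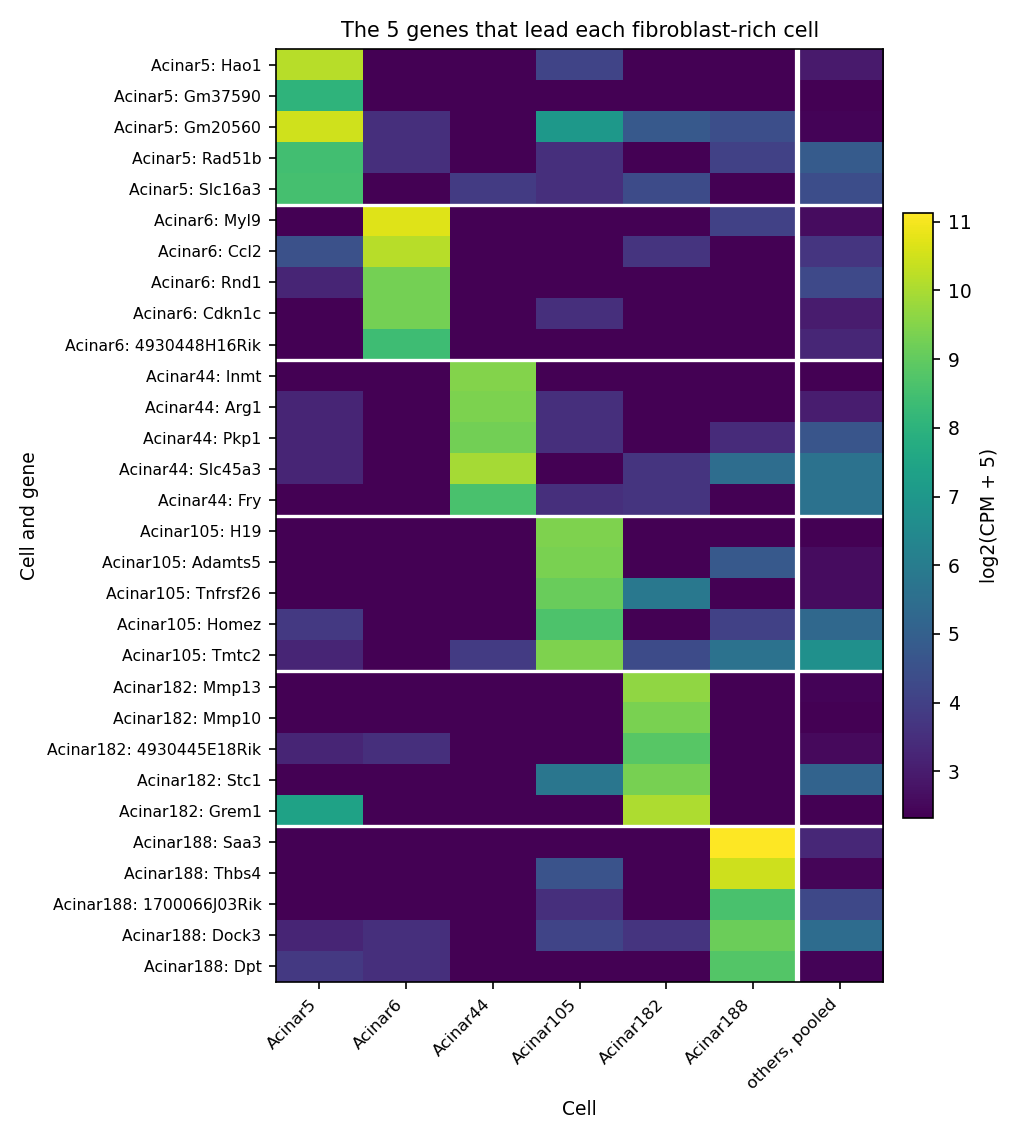
Level of the 5 leading genes of each fibroblast-rich cell as log2(CPM + 5), with a column for each of the 6 cells and, right of the white line, the pooled level of the other cells; rows were chosen for their height in 1 cell. Saa3 at 2226 CPM in Acinar188, Myl9 at 1671 in Acinar6 and Hao1 at 1158 in Acinar5 are examples, and most rows are dark in the other 5 cells.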

How the data were processed

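RNA was measured in 179 single cells of 1 labelled group, of which 6 are the fibroblast-rich cells and 155 the others they are set against. The authors deposited 2 tables with a row per cell and 32100 Ensembl identifiers, 1 of UMI counts and 1 of read counts, both raw whole numbers. The submitters' processing notes name the builds GRCm38 and mm10, the aligner STAR and the counter featureCounts, all without versions, with the collapsing of UMIs not given in the sources used here. UMI counts were used, and reads only as an alternative. Symbols were found for 31985 identifiers.

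CPM were computed from total UMIs per cell, pooled levels from summed UMIs. Genes at 10 CPM or more in either set (11763) were kept, and 5 CPM was added to both levels of a ratio, which understates the ratio of low genes. The ratio was checked on simulated counts. All 6 cells lay above every other cell for 139 genes and below for 9, and 101 genes had no UMI in the 6 cells. The alternatives were reads, equal weight per cell, another addition, filter, scaling (TMM by edgeR), set of other cells, ratio and leaving out each cell.

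The cells and all 43 gene lists were chosen with earlier results of these data known. Named genes are the 4 highest members of a list in either set and those not detected, the 25 highest and lowest ratios, the 15 most abundant genes, the 20 highest genes not detected in the 6 cells, 5 leading genes per cell and the 15 widest ranges among the 6. Ccl7, Col6a2, Dmp1, Ezr, F11r, Grb7, Lrat, Lsr, Mboat1, Nkx2-3, Snai1, Spint1, Tagln, Tpd52, Twist1 and Zeb1 were chosen after their values were seen. So were Foxf2, Kdr, Osr1 and Wt1. Some genes that the rule names are not reported here. Software was Python 3.11.15, numpy 2.4.6, pandas 2.3.3, scipy 1.17.1, matplotlib 3.10.9, R 4.3.3 and edgeR 4.0.16. Promoter sequences are RefSeq's for GRCm38.p6, and gene positions those of GENCODE vM21.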

Additional observations from a re-analysis of the deposited data

Results flagged for a closer look

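Single cells that stood far from the other 5 were sought on the log2(CPM + 5) scale in 43 lists and 80 genes, by the share of the whole range that lies between the outermost cell and its neighbour (above 0.625). Genes chosen for their spread among the 6 were left out. Chance gives about 1 in 20 for independent, normally distributed values, and 16 were found. The lists and genes overlap and were chosen with earlier results known, so the 16 cannot be set against that share. A gene with UMIs in 1 cell alone, such as Cgn, Cela2a or Trf, passes whatever its count. The causes of the 16 were not tested.

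Acinar5 was the low cell for the quiescent stellate list (618 CPM, against 1872 to 3551 in the other 5), the list of collagens other than fibrillar ones (1337 CPM, against 6785 to 14445 in the other 5), the proteoglycan list (2048 CPM, against 3314 to 4307 in the other 5) and the endothelial list (144.7 CPM, against 469 to 628 in the other 5). It was also low for Col15a1 (171.01 CPM, against 1196 to 2208 in the other 5) and Igfbp7 (723 CPM, against 3394 to 5701 in the other 5). It was the high cell for the glycolysis and hypoxia list (10804 CPM, against 2874 to 4309 in the other 5).

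Acinar188 was the high cell for the epithelial list (9976 CPM, against 1007 to 1637 in the other 5), Cdh1 (89.7 CPM, against 6.45 to 17.5 in the other 5), Lcn2 (308 CPM, against 8.77 to 31.3 in the other 5), Cgn (28.04 CPM, against 0 in the other 5) and Hgfac (39.3 CPM, against 0 to 6.26 in the other 5), an activator of hepatocyte growth factor. Acinar105 was the low cell for the elongation factor Eef2 (1058 CPM, against 1772 to 2325 in the other 5).

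Cgn and Hgfac in Acinar188 rest on a few UMIs, since 1 UMI is 5.61 CPM in that cell. The last 3 do as well. The lipase-related gene Pnliprp1 stood at 37.4 CPM in Acinar182, against 0 to 5.61 in the other 5. The elastase gene Cela2a stood at 4.69 CPM in Acinar44 and Trf at 6.45 CPM in Acinar6, each against 0 in the other 5. For the last pair 1 UMI made the value.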

How the results depend on the processing

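Each result was recomputed under 19 alternatives. The counts of genes called higher and lower stayed within 1.5 times of 858 and 638 except with 1 CPM added (963 lower) and at a ratio of 2 (1824 and 1668). The share of genes with all 6 cells below the others, 0.0765%, was 0.191% on reads, 0.129% under median-of-ratios and under TMM scaling, 0.187% against other cells of at least 100000 UMIs, 0.0170% against all other cells and 0.119% without the enzyme-rich ones. With no filter on low values, which adds genes to the total, 0.458% lay above and 0.0297% below. Within title numbers up to 96, 3 against 77 cells, 2.49% lay above, 1.18% below and 4.41% were not detected. From 97 on, 3 against 78, these were 2.70, 0.160 and 2.03%. In both, fewer cells have to be passed. Leaving out each of the 6 cells gave 1.27 to 1.56% above, 0.0765 to 0.490% below and 1.14 to 2.38% not detected, the highest of the last pair without Acinar188, and 818 to 914 genes higher and 626 to 759 lower.

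The acinar list, at a log2 ratio of -3.93, was at -5.64 on reads, -0.52 without the enzyme-rich cells and at -4.96 and -0.89 in the lower and upper title numbers. The mesenchymal list was at 6.07 on reads in place of 5.53, the rule's list and the Hox list at 10.32 and 7.55 with 1 CPM added, and the adipocyte list at 0.68 in the lower title numbers. The median correlation between the 6 cells, 0.655, was 0.778 with no filter. Of the gene ratios given, Prss2 (0.19 from title number 97 on) changed direction, and the cause was not tested. TMM and median-of-ratios scaling lower the level of the 6 cells by 0.14 and 0.09 on the log2 scale, and ratios of low genes by less, since 5 CPM is added. Genes with few UMIs in 1 cell, such as those near the limit of 2.81 CPM, are limited by depth. No paired analysis was possible because all cells belong to 1 labelled group and a cell's number marks no pair.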

Other observations

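Intermediate filaments and adhesion genes divided along the same line. Of 18 filament genes, 4 were called higher and 6 lower, with Lmna, which encodes lamins of the nuclear envelope, at 947 CPM in the 6 cells, against 543 in the others. Krt5 and Krt14, keratins of stratified epithelium, had no UMI in the 6 cells. The mesenchymal cadherin Cdh11 was at 228, 406, 825, 801, 329 and 353 CPM in the 6 cells, against at most 15.2 in the others, and the tetraspanin Cd63 at 842 and 179.9.

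None of 24 genes of the unfolded protein response was called higher and 1 was lower, against 7.29% and 5.42% of all genes. The chaperone Hspa5 was at 1123 CPM in the 6 cells, against 788 in the others, and Hsp90b1 at 1729 and 1294. Of 29 inflammatory and interferon genes, 5 were called higher and 10 lower. Ifitm3 was at 364, 213, 234, 507, 269 and 645 CPM in the 6 cells, against 38.5 in the others, B2m at 424 and 209, and Cxcl10, Ccl5 and Ifit1 had no UMI in the 6 cells. S phase genes were between the limits or lower by pooled level, 6 of 20 being lower, with Mcm3 at 17.8 CPM in the 6 cells, against 126.8 in the others. Their sums were 965, 368, 202, 1434, 247 and 768 CPM in the 6 cells, against a median of 1213 in the others. Acinar105 alone lay above that median. Islet genes gave a low background in both: the insulin gene Ins2 was at 41.2 CPM in the 6 cells, against 41.8 in the others. Mbp was at 8.43 CPM in the 6 cells, 44.9 in Acinar188, and at 77.6 in the others.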
